A study of Mus musculus with 61 samples.

Results

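The Wnt ligands are secreted, lipid-modified proteins through which cells signal to their neighbours. The 10 ligands described here, Wnt1, Wnt2b, Wnt3, Wnt3a, Wnt4, Wnt5a, Wnt5b, Wnt6, Wnt8a and Wnt11, were taken by gene symbol from a table of 55052 genes, and all 10 were found. They are 10 of the 19 Wnt genes of the mouse. In the β-catenin branch of the pathway, a ligand binds a Frizzled receptor with Lrp5 or Lrp6, β-catenin escapes destruction and acts with TCF/LEF factors on target genes. Wnt5a, Wnt5b and Wnt11 are best known for signalling without β-catenin, in cell movement and planar polarity. In the gastrulating embryo Wnt3 is needed to form the primitive streak, and Wnt3a and Wnt5a to extend the body axis behind it.

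Poly-A RNA was sequenced from stembryos, aggregates of mouse embryonic stem (mES) cells that elongate like a posterior body axis and are also called gastruloids. Each library came from pooled stembryos of a condition. All conditions had received a pulse of Chiron, an inhibitor of GSK-3 that stabilises β-catenin without any ligand, in the day before 72 h, where hours count from aggregation. From 108 h on, only elongating stembryos were collected. The 61 libraries comprised a wild-type time course of 16 libraries, with a pair at each of 72, 84, 96, 108, 120, 132, 144 and 168 h, and 10 wild-type (wt) controls outside it, 4 collected at 96 h, another 4 at 120 h and a pair at 144 h. The other 35 libraries came from 8 mutant lines in 17 groups, with 2 libraries a group and 3 for Del(sub-TAD1) at 96 h. None of these mutations touches a Wnt gene: they change the HoxD cluster, whose genes are switched on in sequence, or its regulatory domain. Del(CBS1), Del(CBS2), Del(CBS1-2), Del(CBS4) and Del(CBS1-5) lack sites bound by the insulator protein CTCF, Del(d1-d4) lacks Hoxd1 to Hoxd4, Ins(2xCBS-d4d8) carries a cassette with 2 added CTCF sites, and Del(sub-TAD1) lacks an enhancer domain beside the cluster. The mutations were homozygous CRISPR changes in cultured wild-type mES cells (EmbryoMax 129/SVEV), with Del(CBS1-2) made on Del(CBS1) cells, except in Del(CBS1-5) and Del(sub-TAD1). The mES cells of Del(CBS1-5) and Del(sub-TAD1) were derived from blastocysts of mice kept in a back cross with BL6 × CBA F1 hybrids. They therefore differ from the controls in origin and strain background as well. In these lines mutation, origin and strain cannot be told apart. The Del(sub-TAD1) line also carries a transgene that restores Mtx2. Controls and the time course were labelled wild type.

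Levels are FPKM, fragments per kilobase of transcript and per unit of mapped depth, so that they can be set beside each other between genes. Differences are on the log2(FPKM + 0.1) scale, which understates changes of genes near 0.1 FPKM, and are given with a standard error and with an adjusted p from limma over the 17098 genes that passed a filter on low values. Of the 10 ligands, 9 passed it and Wnt1 did not. Depth, inferred from the confidence bounds of the FPKM, was 14.3 to 37.3 M fragments a library. The libraries fell into a set of 28 and a set of 33, told apart by 4 mitochondrial transcripts. All time-course libraries, the wt controls at 144 h and replicate 4 of the wt controls at 96 h and 120 h lay in the set of 33, while the other controls and most mutants lay in the set of 28. Mutant results are therefore also given against wild type from the same set as the mutant (its own set). For mutants in the set of 28 this was control replicates 1 to 3. For Del(CBS4) at 120 h, Ins(2xCBS-d4d8) and Del(sub-TAD1) at 96 h, it was control replicate 4 with both time-course libraries of the stage. At 144 h it was both controls with both time-course libraries. Own sets with time-course libraries also carry any difference between controls and time course. The labels do not say that replicates came from separate cultures, so the p-values measure the spread between these libraries. In these bulk libraries, fewer cells that make a ligand and less ligand RNA per cell cannot be told apart. The paper scaled FPKM of Hox genes against other Hox clusters because stembryos can vary in growth speed. No such scaling was applied to the Wnt genes. The labelled origin from mES cells was looked for in 5 pluripotency markers, which summed to 1196 and 1219 FPKM at 72 h and to 14.0 and 16.4 at 168 h. All 5 averaged at least 1 FPKM at every time-course stage, so that count does not set 72 h apart. Of them, Esrrb and Zfp42 did not differ between the stages (F test of limma, adjusted p = 0.825 and 0.665).

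In the wild-type time course all 9 ligands tested differed between stages (F test of limma), against 61.8% of all genes. Between 72 h and 168 h all 9 were called, 2 higher and 7 lower, against 48.2% of all genes called, 25.3% higher and 22.9% lower. The median of the 9 differences was -2.0, and that of all genes -0.0. Wnt4 and Wnt5a rose. Wnt8a, Wnt3, Wnt3a, Wnt6, Wnt2b, Wnt5b and Wnt11 fell, with differences of -5.70, -4.70, -3.74, -3.44, -2.0, -1.98 and -1.11. The calls of Wnt11 and Wnt2b depended on single libraries: without replicate 1 of the 72 h stage they were -0.70 (adjusted p = 0.274) and -1.07 (adjusted p = 0.154), and without replicate 1 of the 168 h stage Wnt11 was -0.998 (adjusted p = 0.108).

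The ligands moved at different times. Their calls were most frequent in the intervals from 72 h to 96 h, where the shares of all genes called were also largest. From 72 h to 84 h 8 of 9 were called, 6 higher and 2 lower, with 16.3% of all genes called. From 84 h to 96 h 6 fell (20.7% of all genes called), and from 96 h to 108 h 3 fell and 1 rose (9.45%). After that, 2 fell from 108 h to 120 h (7.06%), 1 rose from 120 h to 132 h (2.46%) and 3 fell from 144 h to 168 h (9.87%). From 132 h to 144 h no ligand was called by limma and none had an unadjusted p under 0.05, while 5.42% of all genes were called. Because the 2 libraries of the 96 h stage differed from each other, 84 h was also compared directly with 108 h, a comparison added after the data were seen: all 9 ligands were called, 2 higher and 7 lower, with 29.0% of all genes called.

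**Figure D1:**
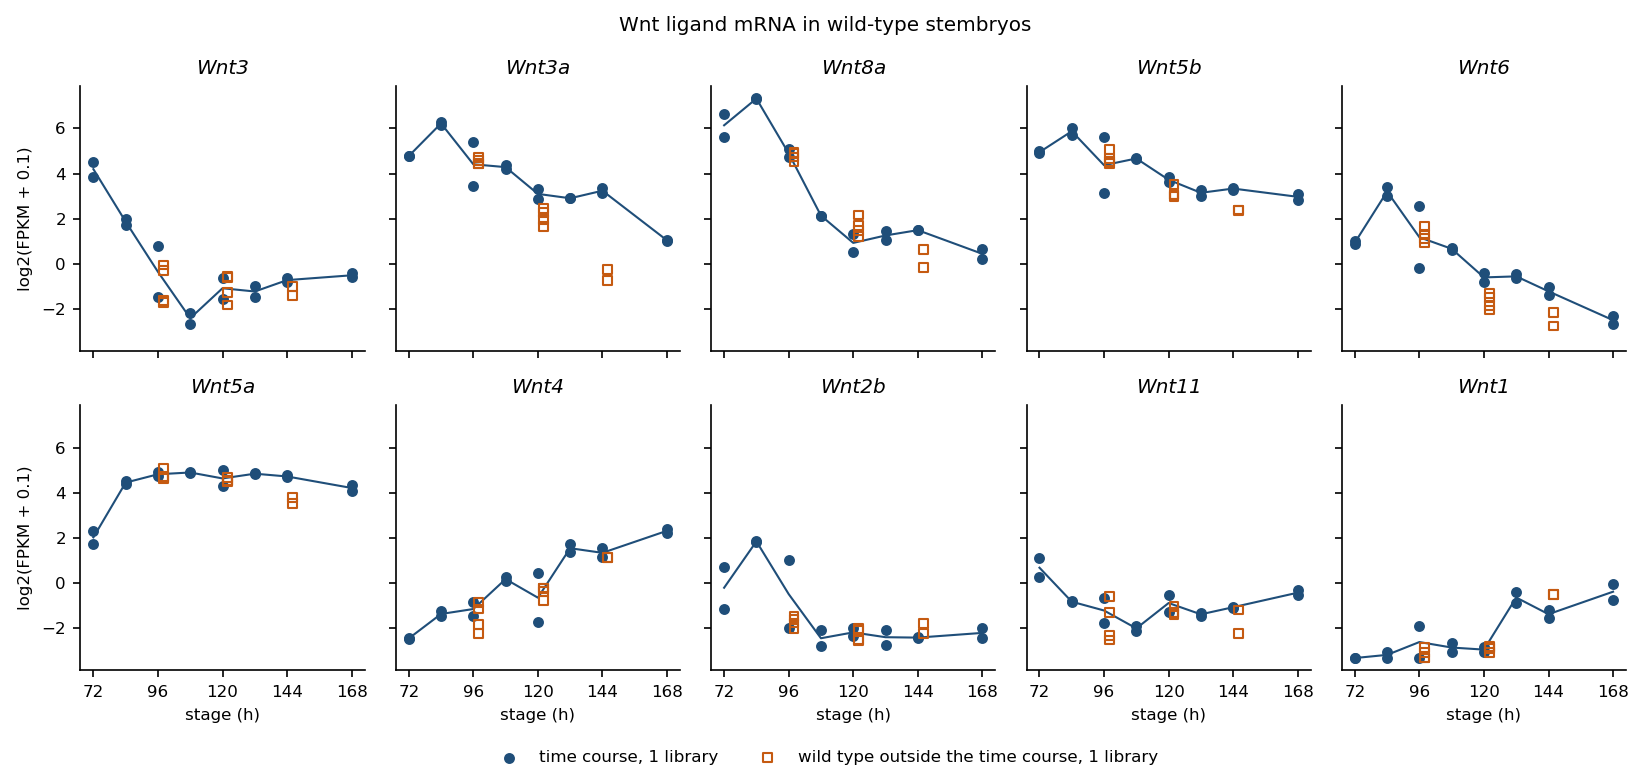
Levels of 10 Wnt ligands in wild-type stembryos, as log2(FPKM + 0.1) against the stage in hours; filled circles are single time-course libraries and open squares single wild-type controls outside the time course, shifted by 2 h to the right. In the time course, Wnt3 is highest at 72 h, and Wnt3a, Wnt8a, Wnt5b and Wnt6 at 84 h. Time-course levels of Wnt5a stay between 16.7 and 31.7 FPKM from 84 h on, and those of Wnt4 rise to 4.57 and 5.21 FPKM at 168 h.

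Wnt3, the ligand that starts the primitive streak in the embryo, fell from 72 h to 108 h. It lies at chr11:103774150-103817957 (mm10, plus strand). Its levels were 23.0 and 14.5 FPKM at 72 h, 3.25 and 3.89 at 84 h, 0.257 and 1.62 at 96 h, and 0.0592 and 0.123 at 108 h. Both libraries of 72 h lay above all others of the time course, and from 120 h to 168 h Wnt3 stayed between 0.241 and 0.652 FPKM. The rise from 108 h to 120 h (1.33) was not called by limma (adjusted p = 0.0947). It was called with a replicate block (1.33, adjusted p = 0.0384) and with a pseudocount of 0.01 (1.98, adjusted p = 0.0361). The fall from 72 h to 84 h was -2.33 ± 0.48 (SE; adjusted p = 0.000582), to 0.191 of the earlier mean, and did not depend on any single library. The steps from 84 h to 96 h (-2.22, adjusted p = 0.000766) and from 96 h to 108 h (-2.06, adjusted p = 0.00465) each rested on a 96 h library. Without replicate 1 of 96 h the first was -1.09 (adjusted p = 0.133), and without replicate 2 the second was -0.92 (adjusted p = 0.408). Without replicate 1 of 108 h the second was -1.81 (adjusted p = 0.0703). From 84 h to 108 h, without the 96 h libraries, Wnt3 fell by 4.28 (adjusted p = 9.19e-09).

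Wnt8a, a ligand of the early streak, reached the highest level of any Wnt gene. It was at 49.8 and 99.8 FPKM at 72 h, 158 and 163 at 84 h, 33.6 and 26.3 at 96 h, and 4.29 and 4.32 at 108 h. It then stayed at 2.73 FPKM or lower to 168 h, when it was at 1.49 and 1.07. The peak at 84 h stood above both neighbouring stages in both libraries. The fall to 96 h was -2.43 ± 0.31 (adjusted p = 2.92e-07) and the fall to 108 h -2.76 ± 0.31 (adjusted p = 2.13e-07), and neither was lost when a library was left out. The rise into the peak (1.18, adjusted p = 0.00658) was 0.68 without replicate 1 of 72 h (adjusted p = 0.262). The later falls from 108 h to 120 h (-1.21, adjusted p = 0.0132) and from 144 h to 168 h (-1.05, adjusted p = 0.0257) were each lost without any of 3 of their 4 libraries, with the values -0.81 without replicate 1 of 120 h (adjusted p = 0.28) and -0.83 without replicate 2 of 168 h (adjusted p = 0.267).

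Wnt3a, which keeps the tail bud and its neuromesodermal progenitors going, lies at chr11:59248033-59290752 (mm10, minus strand). It was at 27.7 and 27.0 FPKM at 72 h, 78.1 and 71.4 at 84 h, 41.7 and 10.8 at 96 h, 18.4 and 20.5 at 108 h, and 7.34 and 9.80 at 120 h. It then held between 7.40 and 10.1 FPKM up to 144 h and was at 1.98 and 1.94 at 168 h. Its levels thus came down after 84 h, were level for a stretch, and came down again after 144 h. The rise from 72 h to 84 h was 1.45 ± 0.37 (adjusted p = 0.00451) and the last fall -2.2 ± 0.37 (adjusted p = 5.75e-05). The fall from 84 h to 96 h (-1.81, adjusted p = 0.000315) was -0.84 without replicate 2 of 96 h (adjusted p = 0.11), whereas 108 h lay below 84 h by -1.94 (adjusted p = 7.24e-05). The step from 108 h to 120 h (-1.19, adjusted p = 0.0418) was lost without replicate 1 or 2 of 108 h or replicate 1 of 120 h (adjusted p = 0.14, 0.19 and 0.288).

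Wnt5b and Wnt6 peaked with Wnt3a. Wnt5b, at chr6:119432531-119544347 (mm10, minus strand), was at 31.6 and 30.0 FPKM at 72 h, 65.7 and 52.4 at 84 h, and 48.6 and 8.71 at 96 h. It was at 25.3 and 25.5 at 108 h, 12.2 and 14.2 at 120 h, and 7.04 and 8.53 at 168 h. Wnt6, at chr1:74771892-74785322 (mm10, plus strand), was at 1.75 and 1.89 FPKM at 72 h, 10.48 and 7.90 at 84 h, 5.75 and 0.778 at 96 h, 1.43 and 1.55 at 108 h, and 0.101 and 0.0571 at 168 h. Both were highest at 84 h in both libraries, and in both genes the 96 h libraries were far apart. Wnt6 rose by 2.26 ± 0.47 from 72 h to 84 h (adjusted p = 0.000641), while the difference of 0.93 in Wnt5b missed the threshold (adjusted p = 0.055). The falls from 84 h to 96 h, -1.50 for Wnt5b (adjusted p = 0.000983) and -2.02 for Wnt6 (adjusted p = 0.00166), were -0.27 and -0.66 without replicate 2 of 96 h (adjusted p = 0.438 and 0.374). From 84 h to 108 h Wnt5b fell by 1.21 (adjusted p = 0.0054) and Wnt6 by 2.54 (adjusted p = 6.3e-05).

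The 96 h libraries of the time course also differed in other genes. Replicate 2, with the lower Wnt3a, Wnt5b and Wnt6, had an endoderm marker sum (Sox17, Foxa2, Cdh1 and Trh) of 514 FPKM against 97.2 in replicate 1, and a primitive streak and neuromesodermal sum (T, Nkx1-2, Cdx2, Fgf8 and Sox2) of 158 against 428. All markers of both lists averaged at least 1 FPKM at that stage. The part of these differences in the Wnt levels was not tested.

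Promoter windows are shown for Wnt3a, Wnt5b and Wnt6, which peaked together at 84 h. Wnt2b and Wnt8a also peaked at 84 h in both libraries and are not shown. RefSeq windows of 250 bases upstream of a transcription start (GRCm38.p6) were available for 8 of the 10 ligands, in 11 windows, and not for Wnt5a and Wnt8a. They were searched on both strands for the TCF/LEF cores CTTTGA and CTTTGT, bound by the factors that act with β-catenin, and for the T-box half-site AGGTGT. These were found in 13.83%, 16.46% and 11.83% of 32851 windows of all genes. CTTTGA or CTTTGT was in 27.62% of them. The capitals mark matches, which do not overlap each other, and the sequences of Wnt3a (chr11:59290752-59291001, minus strand), Wnt6 (chr1:74771642-74771891, plus strand) and an internal start of Wnt5b (chr6:119449387-119449636, minus strand) read 5′ to 3′:
Wnt6: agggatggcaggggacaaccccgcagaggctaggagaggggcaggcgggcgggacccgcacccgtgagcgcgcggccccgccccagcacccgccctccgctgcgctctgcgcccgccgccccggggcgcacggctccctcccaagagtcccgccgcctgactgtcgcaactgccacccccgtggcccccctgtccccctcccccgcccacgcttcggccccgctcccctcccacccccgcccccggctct
Wnt5b: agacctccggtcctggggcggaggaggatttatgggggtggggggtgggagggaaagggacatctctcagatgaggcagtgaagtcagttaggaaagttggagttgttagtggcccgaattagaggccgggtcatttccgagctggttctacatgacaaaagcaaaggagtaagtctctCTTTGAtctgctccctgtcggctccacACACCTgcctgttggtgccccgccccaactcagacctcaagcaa
Wnt3a: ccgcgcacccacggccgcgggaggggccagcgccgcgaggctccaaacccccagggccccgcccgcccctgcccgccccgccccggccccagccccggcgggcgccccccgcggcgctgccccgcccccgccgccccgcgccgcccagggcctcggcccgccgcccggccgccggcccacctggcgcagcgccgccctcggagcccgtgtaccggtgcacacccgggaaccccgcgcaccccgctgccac
This Wnt5b window held CTTTGA at -71 and AGGTGT, read on the other strand as ACACCT, at -44, counted in bases from the start. It was the only Wnt5b window with a match. No match was found in the Wnt3a and Wnt6 windows, which are rich in G and C, at 87.6% and 79.6% against a median of 52.4% over all windows, nor in those of Wnt1, Wnt3 and Wnt4, nor in the other windows of Wnt5b (chr6:119544348-119544597 and chr6:119467212-119467461) and of Wnt11 (chr7:98838595-98838844). Among the ligands not shown, a window of Wnt11 (chr7:98834862-98835111) held CTTTGA, as TCAAAG, at -50, and that of Wnt2b AGGTGT at -151. Of the 11 windows, only the printed Wnt5b window and this Wnt11 window held a TCF/LEF core, against 27.62% of all windows. A match is a description of these letters and not a binding site.

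Wnt5a, needed for the outgrowth of the body axis, rose first and then changed little. It lies at chr14:28504750-28527448 (mm10, plus strand). It was at 4.81 and 3.27 FPKM at 72 h and 22.8 and 20.9 at 84 h, a rise of 2.43 ± 0.15 (adjusted p = 1.46e-14) to 5.40 times the mean, lost in no left-out library. From 96 h to 144 h it lay between 19.4 and 31.7 FPKM, and at 168 h at 20.4 and 16.7. No single step between 84 h and 144 h was called, whereas 108 h was above 84 h by 0.45 (adjusted p = 0.0251). The last difference, from 144 h to 168 h, was -0.51 (adjusted p = 0.0278) and -0.37 without replicate 2 of 168 h (adjusted p = 0.332). It was also lost without either 144 h library (adjusted p = 0.0913 and 0.179).

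Wnt4, which acts in the kidney, gonad and neural tube, was the only ligand of the 9 whose highest stage was 168 h. It lies at chr4:137277489-137299726 (mm10, plus strand). It was at 0.0813 and 0.0836 FPKM at 72 h, 0.318 and 0.258 at 84 h, 0.458 and 0.264 at 96 h, and 0.972 and 1.09 at 108 h. The 120 h libraries were apart, at 0.201 and 1.26, and the later stages higher, at 3.20 and 2.48 at 132 h, 2.80 and 2.11 at 144 h, and 4.57 and 5.21 at 168 h. From 72 h to 168 h Wnt4 rose by 4.77 ± 0.37 (adjusted p = 3.35e-13), and its mean 59.3-fold. The step from 120 h to 132 h (2.19, adjusted p = 0.000614) was 1.11 without replicate 1 of 120 h (adjusted p = 0.165), and the step from 144 h to 168 h (0.98) was not called (adjusted p = 0.0963). The steps from 72 h to 84 h (1.09, adjusted p = 0.0399) and from 96 h to 108 h (1.32, adjusted p = 0.0178) were lost without any of the 4 libraries and without any of 3 of them in turn, at adjusted p values of up to 0.216 and 0.253. Replicate 1 of 120 h, with the lower Wnt4, had a spinal cord sum (Sox1, Pax6, Olig2 and Irx3) of 6.72 FPKM against 17.1 in replicate 2, a streak and neuromesodermal sum of 129 against 263 and an endoderm sum of 147 against 33.1. At 168 h the spinal cord sum was 124.5 and 111 FPKM, with all 4 markers at 1 FPKM or more, where 3 of 4 were at 120 h. The part of these in the Wnt4 levels was not tested.

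Wnt2b, Wnt11 and Wnt1 were low throughout. Wnt2b, which acts through β-catenin in the eye and forelimb field, was at 1.55 and 0.356 FPKM at 72 h, 3.51 and 3.48 at 84 h and 0.153 and 1.91 at 96 h, and did not pass 0.152 FPKM from 108 h on. It rose into 84 h by 2.05 (adjusted p = 0.00506), or 1.13 without replicate 2 of 72 h (adjusted p = 0.27), and fell from 84 h to 108 h by 4.29 (adjusted p = 4.91e-08). Its step from 84 h to 96 h (-2.34) was -0.84 without replicate 1 of 96 h (adjusted p = 0.258), and its step from 96 h to 108 h (-1.96) was -0.46 without replicate 2 of 96 h (adjusted p = 0.832) and -1.59 without replicate 2 of 108 h (adjusted p = 0.174). Wnt11 was highest at 72 h, at 2.03 and 1.11 FPKM, and between 0.133 and 0.703 from 84 h on. Its fall from 72 h to 84 h (-1.51, adjusted p = 0.0066) was -1.10 without replicate 1 of 72 h (adjusted p = 0.152). Wnt1, the midbrain and dorsal neural tube ligand at chr15:98789857-98793837 (mm10, plus strand), was at or under 3 fragments in 40 of the 61 libraries and at 0 in 19. Its highest level was 0.884 FPKM, at 168 h, and among time-course libraries it was at 0.167 FPKM or lower to 120 h and between 0.240 and 0.884 from 132 h on. Limits set by 3 fragments cover counting error only.

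The sum of the 19 Wnt genes was 163 FPKM at 72 h, 342 at 84 h, 128 at 96 h, 89.9 at 108 h and 59.6 at 168 h. Wnt8a made up 46.0% of it at 72 h and 46.9% at 84 h, and Wnt5a 41.7% at 132 h. Of the 9 other Wnt genes, Wnt16 made up 20.9% at 132 h, and Wnt7a and Wnt7b 18.96% and 11.4% at 168 h. Among these, 7 passed the filter, of which 4 rose and 2 fell between 72 h and 168 h. Wnt7a, a ligand of the neural tube, rose by 6.60 (adjusted p = 1.3e-21) to 11.2 and 11.4 FPKM, and Wnt7b by 5.98 (adjusted p = 1.47e-16) to 6.34 and 7.22 FPKM.

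**Figure D2:**
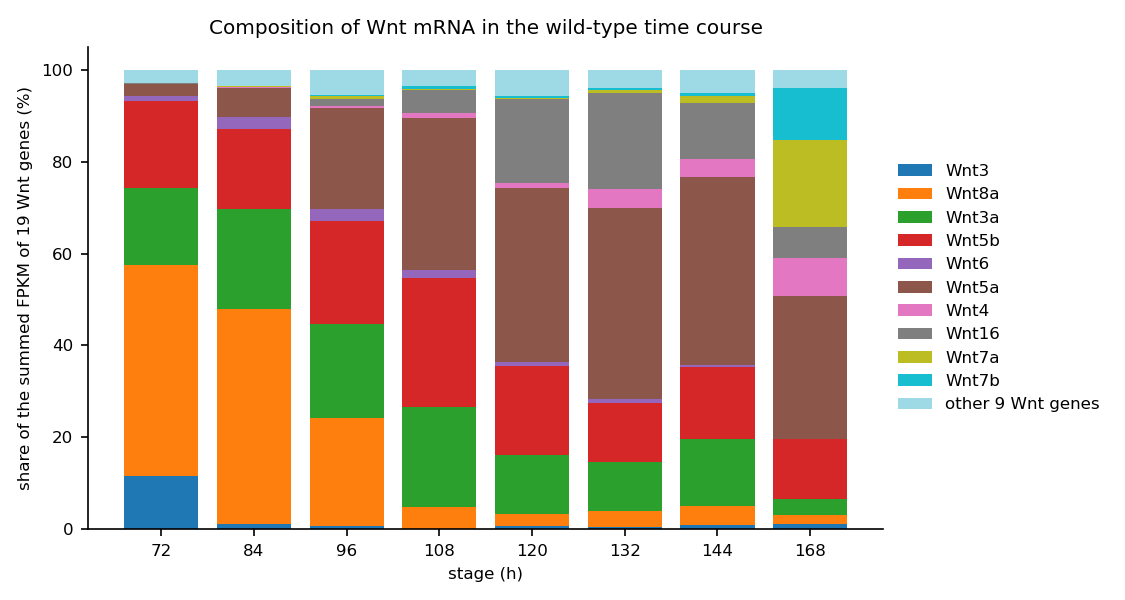
Share of each gene in the summed FPKM of 19 Wnt genes, in percent, at each stage of the wild-type time course in hours, from the mean of 2 libraries. Wnt8a is the largest part at 72 h and 84 h with 46.0% and 46.9%, Wnt5a at 132 h with 41.7%, and Wnt7a and Wnt7b together are visible mainly at 168 h with 18.96% and 11.4%.

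Wnt6, Wnt3, Wnt3a and Wnt1 lie next to another Wnt gene. Wnt6 is 6193 bases from Wnt10a, which was at 3.11 and 3.68 FPKM at 84 h, its highest stage, and rose from 72 h to 84 h by 2.79 (adjusted p = 6.09e-05), as Wnt6 did. Wnt3 is 24328 bases from Wnt9b, which was at 0.297 and 0.344 FPKM at 72 h and at 0.134 or lower after it. Wnt3a is 16175 bases from Wnt9a, which stayed between 0.235 and 1.75 FPKM, and Wnt1 is 11706 bases from Wnt10b, at 0.126 FPKM or lower in the time course.

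Other parts of the pathway are given as counts between 72 h and 168 h, to be read against the 25.3% of all genes higher and 22.9% lower. Of the secretion genes, Wls, which carries Wnt proteins to the cell surface, rose from 22.2 ± 1.98 to 59.0 ± 2.02 FPKM (SD, n = 2; difference 1.41, adjusted p = 1.21e-10) and Porcn was not called. Of 15 receptor genes, 8 rose, 4 fell and 3 were not called, with Fzd9 (3.20) and Fzd3 (3.02) rising and Ror1 (-2.42) and Fzd5 (-1.91) falling most. Of the 8 genes of agonists and their receptors, 5 were tested and 3 rose, led by Ndp (3.09) and Lgr5 (1.82). Of 17 secreted or membrane inhibitors, 13 were tested, 6 rose and 3 fell. Sfrp1 and Sfrp2, which bind Wnt proteins, rose by 4.32 and 4.07, with Sfrp2 going from 11.6 ± 0.154 to 197 ± 5.34 FPKM (SD, n = 2), and Dkk1 and Dkk4, which block Lrp5 and Lrp6, fell (-4.41 and -3.32). Of 13 intracellular components, 4 rose, 4 fell and 5 were not called, with Tcf7l1 (1.41) and Tcf7l2 (1.24) higher and Lef1 (-2.69) and Tcf7 (-2.30) lower. Of 17 genes known as β-catenin targets, 4 rose, 10 fell and 3 were not called, with a median of -2.25. Msgn1 and T, transcription factors of the presomitic mesoderm and the streak, fell (-7.49 and -6.55), and Cdx4 rose by 3.91. Of 7 planar polarity genes, 4 rose and 1 fell, with Celsr2 (3.30) and Celsr1 (2.01) higher and Celsr3 (-1.12) lower.

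Over the means of the 28 groups, the gene most like a ligand among 12906 genes was named for 8 of the ligands by Pearson's r of the log2 means, as a description. For Wnt3a and for Wnt5b it was Sp5, a transcription factor known as a β-catenin target (r = 0.976 and 0.948). For Wnt8a it was Jade2 (r = 0.964), for Wnt6 Cdk18 (r = 0.955), for Wnt4 Ppm1l (r = 0.934) followed by the receptor Fzd3 (r = 0.931), for Wnt3 Ostm1 (r = 0.931), for Wnt2b Avpr1a (r = 0.929) and for Wnt5a the mesoderm factor Foxc1 (r = 0.898). Among the ligands themselves, Wnt5b and Wnt6 were closest (r = 0.958), then Wnt3a and Wnt5b (r = 0.944) and Wnt3a and Wnt6 (r = 0.910), while Wnt3 and Wnt5a were farthest apart (r = -0.607). The 28 points share stages, library sets and, in part, lines.

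The wild-type controls outside the time course gave the change from 96 h to 120 h in other samples. There, 5 of 9 ligands were called, with 27.1% of all genes. Wnt3a was at 21.4, 23.9, 26.5 and 21.5 FPKM at 96 h and at 4.71, 3.76, 5.43 and 3.09 at 120 h, a fall of 2.46 ± 0.26 (adjusted p = 1.73e-09). Wnt8a was at 26.5, 29.3, 23.1 and 30.5 FPKM and then at 2.2, 2.72, 3.11 and 4.39, a fall of 3.14 ± 0.22 (adjusted p = 9.98e-14). For both genes the stages did not overlap. Wnt6 (-2.93) and Wnt5b (-1.53) fell (adjusted p = 1.06e-08 and 3.38e-06), and Wnt4 rose by 1.13 (adjusted p = 0.00102). Wnt5a, at 24.8 to 33.5 and 22.8 to 25.3 FPKM, was not called. No call of this comparison was lost when a library was left out.

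Controls and time course were not alike at the same stage. At 144 h Wnt3a was at 0.5 and 0.751 FPKM in the controls and 8.67 and 10.1 in the time course, lower by 3.73 ± 0.37 (adjusted p = 5.32e-09). Wnt5a was at 11.5 and 13.9 against 25.5 and 27.2 FPKM (-1.05, adjusted p = 5.7e-06). Both controls were also below both time-course libraries in Wnt8a (-1.26, adjusted p = 0.00313) and Wnt5b (-0.96, adjusted p = 0.0366), which makes 4 calls of 9 against 21.5% of all genes. The Wnt8a call was lost without replicate 1 of the controls (-0.87, adjusted p = 0.119), and the Wnt5b call without any of the 4 libraries (adjusted p of 0.114 to 0.155). In Wnt3a the controls at 144 h lay even below the time course at 168 h, where it was at 1.98 and 1.94 FPKM. By correlation over the most variable genes, a description chosen after the data were seen, these controls were nearest to 157 h and 158 h of the time course. Their streak and neuromesodermal sum was 110 and 111 FPKM against 222 and 229 in the time course, with all 5 markers at 1 FPKM or more in both. Their pluripotency sum was 3.88 and 6.06 against 31.8 and 34.2 FPKM, with 2 and 5 of 5 markers at that level. Their spinal cord sum was 69.8 and 74.7 against 41.8 and 46.9 FPKM, with 4 of 4 in both. The heart sum (Tnnt2, Nkx2-5, Myl7 and Hand2) was 1.65 and 2.33 against 38.4 and 61.7 FPKM, with 1 and 3 of 4. The part of these in the Wnt differences was not tested. At 120 h, Wnt3a (-1.01), Wnt6 (-1.07) and Wnt8a (0.71) were called, against 30.1% of all genes. Each of these was lost without a single library: Wnt3a without time-course replicate 2 (-0.81, adjusted p = 0.163), Wnt8a without time-course replicate 1 (0.31, adjusted p = 0.585) or control replicate 2, 3 or 4 (adjusted p = 0.0507, 0.0798 and 0.128), and Wnt6 without either time-course library (adjusted p = 0.0839 and 0.269) or control replicate 1, 2 or 4 (adjusted p = 0.0847, 0.0527 and 0.085). At 96 h, 1 ligand, Wnt2b (-1.23, adjusted p = 0.036), was called against 32.3% of all genes. It turned to 0.26 without time-course replicate 2 (adjusted p = 0.756) and was lost without control replicate 2, 3 or 4 (adjusted p = 0.0601, 0.0504 and 0.0612).

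In the 17 mutant comparisons with the controls of the same stage, 26 of 153 tests of ligands were called, 15 higher and 11 lower, or 17%, against 12.1% of all gene tests in these comparisons. Shares of all genes called are given against the controls, and ran from 0.193% to 40.0% there and from 0.246% to 37.9% against the own sets. No ligand was called in Del(CBS1) at 96 h or 120 h, where 1.23% and 2.10% of all genes were called, in Del(CBS2) at 96 h or 120 h (0.298% and 0.193%), in Del(CBS1-2) at 120 h (2.35%) or in Del(d1-d4) at 96 h (1.19%). In these 6 groups limma gave 3, 1, 1, 2, 0 and 1 ligands with an unadjusted p under 0.05. The calls lay in the other 11 groups, which all used the same controls within a stage.

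**Figure D3:**
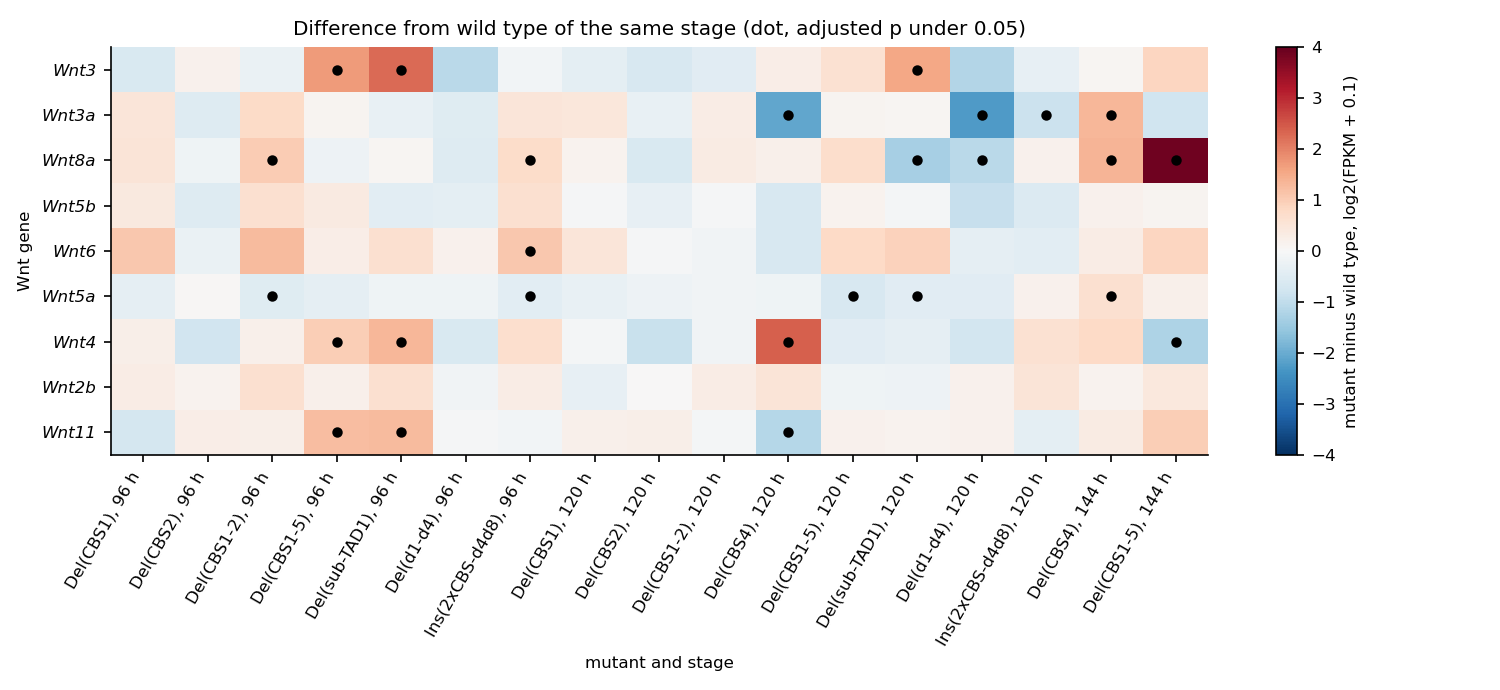
Difference of 9 Wnt ligands between each mutant and wild-type controls of the same stage, as a colour scale of log2(FPKM + 0.1), red for higher and blue for lower in the mutant; dots mark an adjusted p under 0.05. Wnt8a in Del(CBS1-5) at 144 h (3.89), Wnt4 in Del(CBS4) at 120 h (2.39) and Wnt3 in Del(sub-TAD1) at 96 h (2.27) are the 3 strongest reds, and Wnt3a in Del(d1-d4) at 120 h (-2.28) and in Del(CBS4) at 120 h (-2.06) the 2 strongest blues.

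The line Del(CBS1-5) had the largest difference of any ligand. At 144 h its Wnt8a was at 18.7 and 16.0 FPKM, against 0.795 and 1.44 in the controls and 2.71 and 2.73 in the time course. Both mutant libraries lay above every wild-type library from 108 h on, and the difference was 3.89 ± 0.31 (adjusted p = 1.02e-11), or 3.26 against the 4 wild-type libraries of its own set (adjusted p = 8.16e-12). Wnt4 was lower there, at 0.916 and 0.736 against 2.09 and 2.07 FPKM (-1.24, adjusted p = 0.0121, and -1.35 in its own set, adjusted p = 0.00116). Without either control, or without mutant replicate 2, the adjusted p of Wnt4 was 0.0643, 0.0625 and 0.102. These 2 calls stood against 23.7% of all genes. Wnt3a, at 0.203 and 0.468 FPKM, was not called against the controls (-0.78, adjusted p = 0.127) and was lower against its own set (-2.65, adjusted p = 4.62e-08) and against the time course alone (-4.51, adjusted p = 1.23e-11). It was also called without mutant replicate 2 (-1.24, adjusted p = 0.0459). Wnt5a was not called against the controls (0.20, adjusted p = 0.426) and was lower against the own set (-0.33, adjusted p = 0.0368) and the time course (-0.86, adjusted p = 4.52e-05). Wnt5b was called lower against the time course (-0.85, adjusted p = 0.048), where Wnt8a (2.63, adjusted p = 5.38e-08) and Wnt4 (-1.46, adjusted p = 0.00228) were called as well. The pluripotency marker sum (Pou5f1, Nanog, Zfp42, Esrrb and Klf4) was 263 and 265 FPKM in these libraries, with 4 of 5 markers at 1 FPKM or more, against 3.88 to 6.06 in the controls with 2 of 5 and 31.8 to 34.2 in the time course with 5 of 5. The spinal cord sum was 24.4 and 26.2 FPKM against 69.8 and 74.7 in the controls, with all 4 markers at 1 FPKM or more in both. The presomitic sum (Tbx6, Msgn1, Hes7 and Dll1) was 9.89 and 11.2 FPKM against 27.0 and 28.8, with 1 of 4 markers at 1 FPKM or more and Msgn1 at 0 in both. The endoderm sum was 195 and 201 FPKM against 39.4 and 40.7, with all 4 markers in both. By the correlation with time-course stages, these libraries were nearest to 137 h and 139 h, and the controls to 157 h and 158 h. The part of these in the Wnt differences was not tested.

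At 96 h Del(CBS1-5) had higher Wnt3, Wnt11 and Wnt4, 3 calls against 14.8% of all genes. Wnt3 was at 1.48 and 1.75 FPKM against 0.208, 0.224, 0.726 and 0.864 in the controls (1.69 ± 0.42, adjusted p = 0.00529), above all 4. Wnt11 was at 0.667 and 0.594 FPKM (1.23, adjusted p = 0.0133) and Wnt4 at 0.551 and 0.611 (0.97, adjusted p = 0.037). All 3 were also called against the own set (1.98, 1.59 and 1.09). Wnt3 was lost without mutant replicate 2 (1.57, adjusted p = 0.0922), and Wnt11 and Wnt4 without either mutant library or control replicate 1 or 2, at adjusted p values between 0.0545 and 0.239. The pluripotency sum was 219 and 227 FPKM, against 31.7 to 110 in the controls, with all 5 markers at 1 FPKM or more in both groups. By correlation, both mutant libraries were nearest to 90 h of the time course, and the controls to 100, 99, 92 and 99 h. The part of either in the Wnt differences was not tested. At 120 h, Wnt5a was lower, at 14.8 and 15.7 against 22.8 to 25.3 FPKM (-0.63 ± 0.13, adjusted p = 0.00177, and -0.59 in its own set, adjusted p = 0.0029), 1 call against 13.3% of all genes. Without mutant replicate 1 its adjusted p was 0.0562. Wnt8a, at 4.39 and 5.58 FPKM, was not called against the controls (0.70, adjusted p = 0.0846) and was called higher against the own set (0.88, adjusted p = 0.0302), against all wild type of the stage (0.94, adjusted p = 0.00783), with a replicate block (0.92, adjusted p = 0.0142) and without control replicate 4 (0.88, adjusted p = 0.0336). In these mutant libraries the pluripotency sum was 137 and 155 FPKM with all 5 markers at 1 FPKM or more, against 9.31 to 86.9 in the controls with 4 of 5. The streak and neuromesodermal sum was 112 and 115 FPKM against 152 to 188, with all 5 markers in both. The endothelial sum (Kdr, Cdh5, Pecam1 and Sox18) was 9.07 and 11.4 FPKM with 3 of 4 markers at 1 FPKM or more, against 0.712 to 2.93 with 0 of 4. The part of these in the Wnt differences was not tested.

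Del(sub-TAD1), the other line from blastocysts, had higher Wnt3, Wnt4 and Wnt11 at 96 h, 3 calls against 40.0% of all genes. Wnt3 was at 3.13, 2.12 and 2.25 FPKM, above all 4 controls and above both time-course libraries of 96 h (2.27 ± 0.37, adjusted p = 2.78e-05, and 1.61 in its own set, adjusted p = 0.00201). Wnt4 was at 0.801, 0.762 and 0.777 FPKM (1.34 ± 0.28, adjusted p = 0.000522, and 0.96 in its own set, adjusted p = 0.0223). Wnt11 was at 0.639, 0.706 and 0.620 FPKM (1.28, adjusted p = 0.00133) and was not called against its own set (0.60, adjusted p = 0.132). Both mutant lines share the controls of these comparisons. Wnt8a spread widely in this group, at 15.7, 34.7 and 42.3 FPKM, and was not called. The pluripotency sum was 67.6 to 200 FPKM and the endoderm sum 276 to 450, against 31.7 to 110 and 55.5 to 144 in the controls, with all markers at 1 FPKM or more. The mutant libraries were nearest to 93, 91 and 91 h of the time course, and the controls to 100, 99, 92 and 99 h. The part of these in the Wnt differences was not tested.

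At 120 h Wnt3 was still higher in Del(sub-TAD1), at 1.10 and 1.5 FPKM against 0.183 to 0.573 (1.53, adjusted p = 0.0216, and 1.70 in its own set, adjusted p = 0.00607). This call was lost without either mutant library or control replicate 1 or 2 (adjusted p between 0.0554 and 0.281). Wnt8a was lower, at 1.22 and 1.06 FPKM against 2.2 to 4.39 in the controls (-1.33, adjusted p = 0.00184, and -1.15 in its own set, adjusted p = 0.00499), and had an adjusted p of 0.0601 without mutant replicate 2. Wnt5a was lower at 16.8 and 17.3 FPKM (-0.46, adjusted p = 0.0296), lost without either mutant library or control replicate 2 or 4 (adjusted p between 0.051 and 0.248). These were 3 calls against 6.15% of all genes. The pluripotency sum was 10.48 and 11.15 FPKM at this stage, with 1 of 5 markers at 1 FPKM or more, against 9.31 to 86.9 in the controls.

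**Figure D4:**
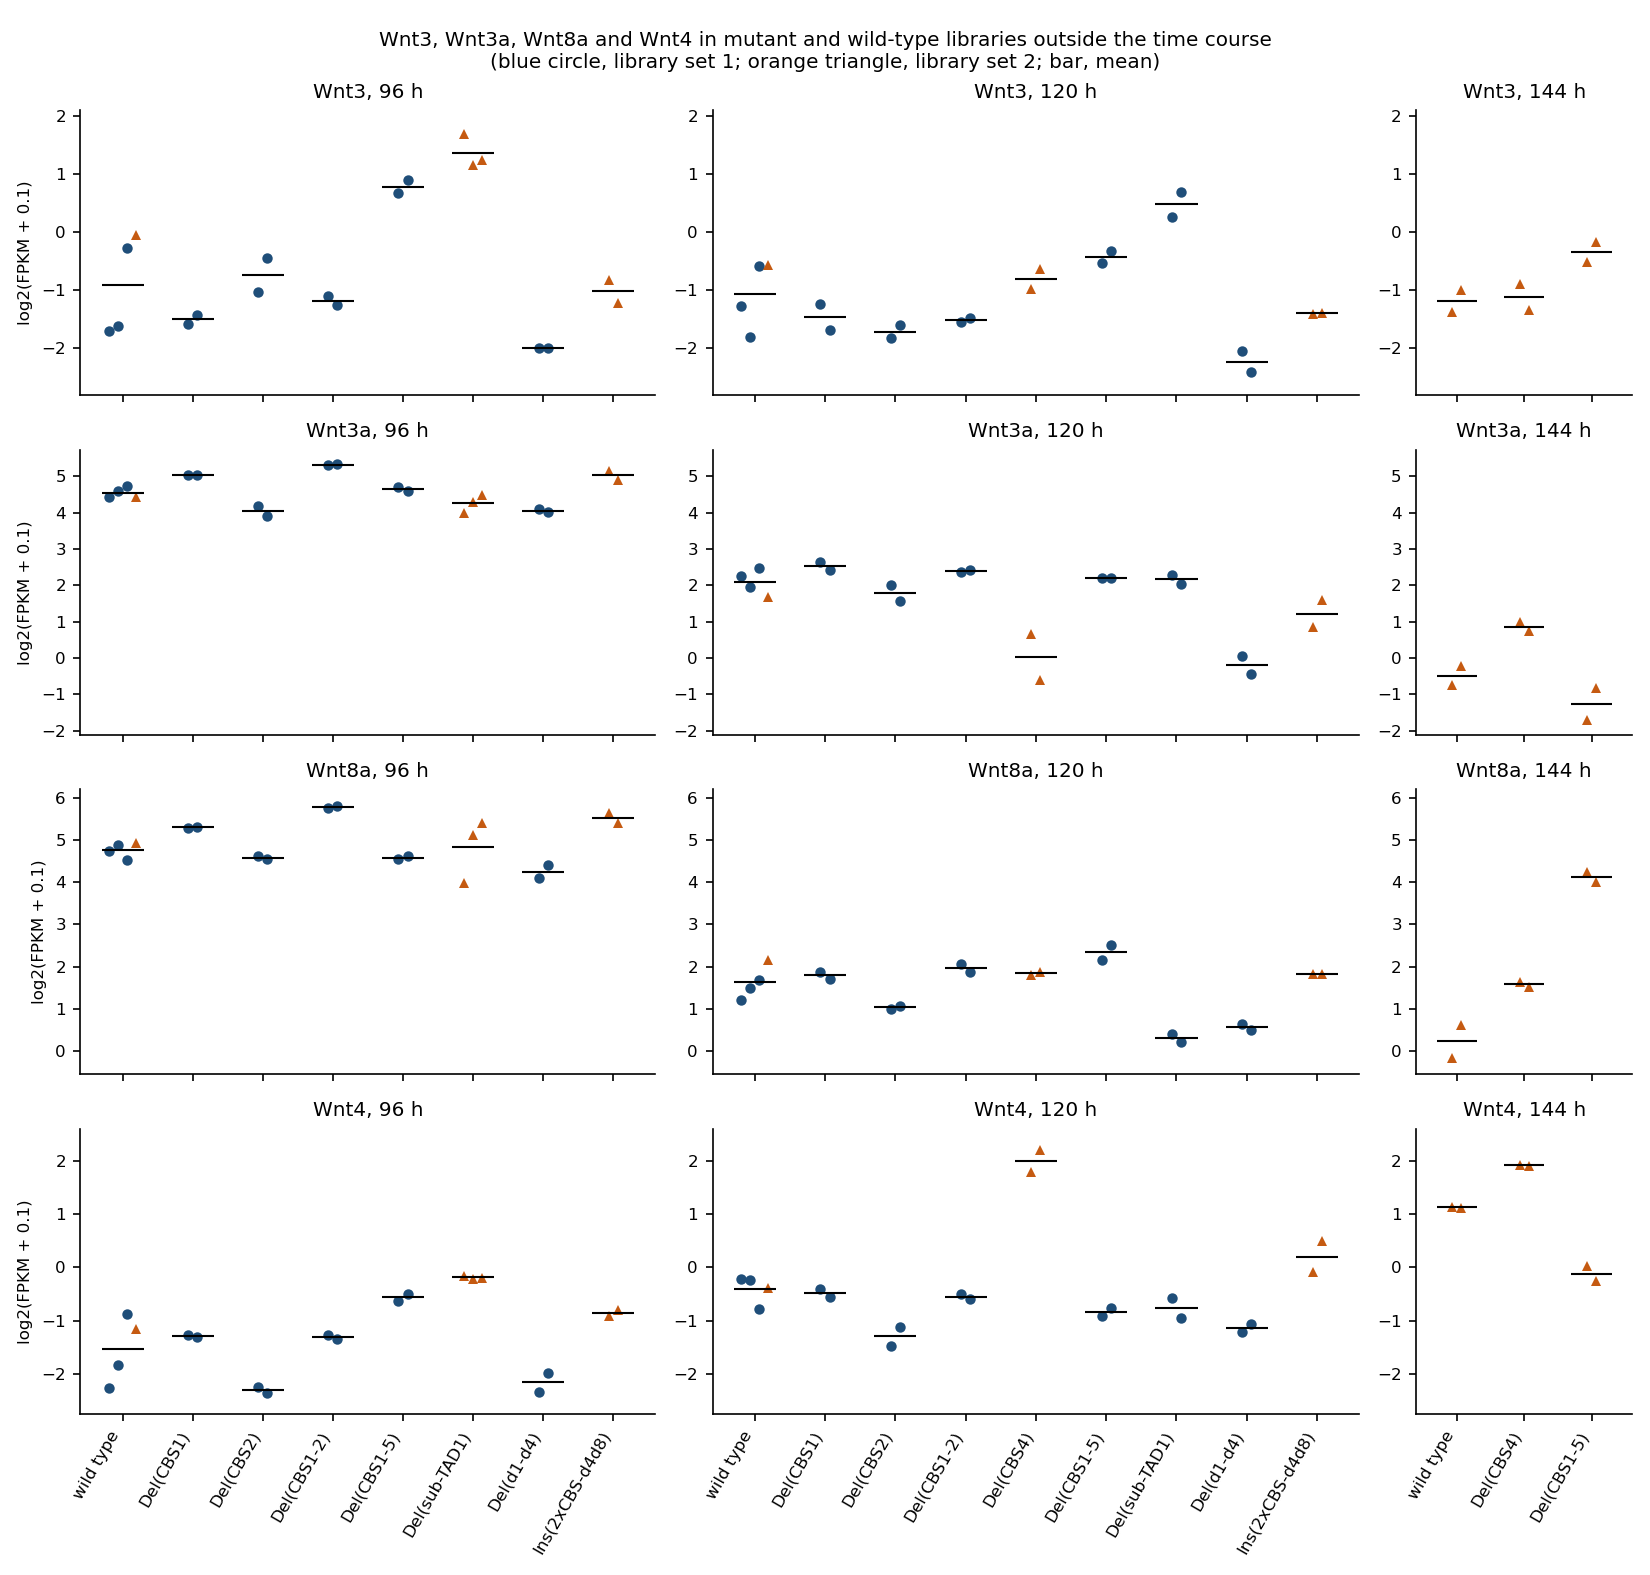
Levels of Wnt3, Wnt3a, Wnt8a and Wnt4 in single libraries outside the time course, as log2(FPKM + 0.1) by genotype and stage, from 96 h to 144 h; bars are group means, and circles and triangles the set of 28 and the set of 33 libraries. Wnt3 of Del(CBS1-5) and Del(sub-TAD1) lies above all controls at 96 h, Wnt3a of Del(CBS4) and Del(d1-d4) below all controls at 120 h, and Wnt8a of Del(CBS1-5) far above both controls at 144 h.

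In Del(CBS4) at 120 h Wnt4 was higher and Wnt3a and Wnt11 lower, 3 calls against 37.5% of all genes. Wnt3a was at 1.47 and 0.561 FPKM, below all 4 controls at 3.09 to 5.43 (-2.06 ± 0.32, adjusted p = 1.06e-05, and -2.60 in its own set, adjusted p = 8.15e-07). Wnt4 was at 3.37 and 4.49 FPKM, above all controls at 0.485 to 0.761 (2.39 ± 0.32, adjusted p = 1.32e-06, and 2.55 in its own set, adjusted p = 1.54e-06). Neither was lost without any library. Wnt11 was at 0.0756 and 0.0994 FPKM against 0.278 to 0.384 (-1.15, adjusted p = 0.00845, and -1.36 in its own set), with an adjusted p of 0.0804 without mutant replicate 1 and 0.05 without replicate 2. Wnt5b and Wnt6 were not called against the controls and were lower against the own set (-0.98 and -1.22, adjusted p = 0.0248 and 0.0461), Wnt5b also against all wild type of the stage (-0.82, adjusted p = 0.0262). The spinal cord sum was 69.7 and 109 FPKM with 3 of 4 markers at 1 FPKM or more, against 9.09 to 26.9 in the controls with 3 of 4. The endoderm sum was 3.66 and 4.52 FPKM, with 1 of 4 markers at 1 FPKM or more and Sox17 at 0 in 1 library, against 15.1 to 171 in the controls. The part of either in the Wnt differences was not tested.

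At 144 h the calls of Del(CBS4) depended on which wild type was used. Wnt3a was at 1.87 and 1.56 FPKM, between the controls at 0.5 and 0.751 and the time course at 8.67 and 10.1. It was higher than the controls (1.34, adjusted p = 0.0451), not called against all 4 wild-type libraries (-0.53, adjusted p = 0.311) and lower than the time course (-2.39, adjusted p = 1.88e-05). Wnt5a, at 20.3 and 19.1 FPKM, likewise lay between (0.64, adjusted p = 0.0178, then 0.11, adjusted p = 0.651, and -0.42, adjusted p = 0.0565). Wnt8a was at 3.03 and 2.76 FPKM (1.35, adjusted p = 0.0141, then 0.72, adjusted p = 0.0722, and 0.08, adjusted p = 0.98). These 3 calls stood against 2.05% of all genes, a share that was 10.9% against the own set, where no ligand was called. All were lost without control replicate 1 or either mutant library, and Wnt3a also without control replicate 2, at adjusted p values between 0.083 and 0.435.

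Del(d1-d4) at 120 h had the lowest Wnt3a of the set of 28 at that stage, at 0.938 and 0.642 FPKM against 3.09 to 5.43 in the controls (-2.28 ± 0.32, adjusted p = 3.05e-05, and -2.42 in its own set, adjusted p = 3.1e-05). It was not lost without any library. Wnt8a was at 1.44 and 1.30 FPKM against 2.2 to 4.39 (-1.08, adjusted p = 0.0284) and was not called against its own set (-0.90, adjusted p = 0.0963). It was also lost without control replicate 3 or 4 or either mutant library (adjusted p between 0.063 and 0.353). These were 2 calls against 1.85% of all genes. In this group the streak and neuromesodermal sum was 109 and 120 FPKM, against 152 to 188 in the controls, with all 5 markers at 1 FPKM or more; its part was not tested.

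Del(CBS1-2) and Ins(2xCBS-d4d8) were each compared at 96 h with the shared controls, and Wnt8a was called higher and Wnt5a lower in each. In Del(CBS1-2), Wnt8a was at 53.9 and 55.9 FPKM against 23.1 to 30.5 (1.01 ± 0.27, adjusted p = 0.0271, and 1.06 in its own set, adjusted p = 0.0288), and Wnt5a at 19.9 and 19.5 against 24.8 to 33.5 (-0.47, adjusted p = 0.0368, and -0.37 in its own set, adjusted p = 0.135). These were 2 calls against 4.49% of all genes. In Ins(2xCBS-d4d8), Wnt8a was at 49.5 and 42.3 FPKM (0.75, adjusted p = 0.0366, and 0.61 in its own set, adjusted p = 0.126), Wnt5a at 17.7 and 23.2 (-0.43, adjusted p = 0.0153, and -0.56 in its own set, adjusted p = 0.00343) and Wnt6 at 4.80 and 5.00 against 1.83 to 3.02 (1.07, adjusted p = 0.0494, and 1.22 in its own set, adjusted p = 0.0486). These were 3 calls against 27.9% of all genes. Wnt5b of this line was not called against the controls (0.64, adjusted p = 0.1002) and was called against its own set (0.91, adjusted p = 0.0412), with upper-quartile scaling (0.80, adjusted p = 0.0266) and with a replicate block (0.72, adjusted p = 0.0492). All 5 calls of both lines were lost without single libraries. In Del(CBS1-2) these were either mutant library for both genes, control replicate 3 for Wnt8a and control replicate 4 for Wnt5a (adjusted p between 0.0547 and 0.281). In Ins(2xCBS-d4d8) they were either mutant library for Wnt8a and Wnt6 and replicate 1 for Wnt5a, with control replicates 1 and 3 for Wnt8a, 4 for Wnt5a, and 1, 2 and 4 for Wnt6 (adjusted p between 0.0513 and 0.412). The streak and neuromesodermal sum was 449 and 468 FPKM in Del(CBS1-2) and 469 and 528 in Ins(2xCBS-d4d8), against 231 to 339 in the controls, with all 5 markers at 1 FPKM or more. The nearest time-course stages were 92 and 92 h in Del(CBS1-2), 92 and 100 h in Ins(2xCBS-d4d8), and 100, 99, 92 and 99 h in the controls. The part of either in the Wnt differences was not tested. At 120 h, Wnt3a of Ins(2xCBS-d4d8) was at 1.71 and 2.91 FPKM against 3.09 to 5.43 (-0.87, adjusted p = 0.0389, and -1.40 in its own set, adjusted p = 0.00601), 1 call against 26.9% of all genes. It was -0.50 without mutant replicate 1 (adjusted p = 0.472) and was lost without control replicate 1 or 3 (adjusted p = 0.0756 and 0.119).

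Whether a mutant's difference from wild type changed between stages was tested directly for the 8 lines, in 10 pairs of stages. In Del(CBS1-5), the Wnt8a difference was larger at 144 h than at 96 h by 4.08 ± 0.41 (adjusted p = 8.34e-09) and than at 120 h by 3.19 ± 0.41 (adjusted p = 1.89e-06). The Wnt4 difference turned from higher at 96 h to lower at 144 h (-2.21 ± 0.49, adjusted p = 0.00247), and the Wnt5a difference was 0.83 larger at 144 h than at 120 h (adjusted p = 0.00948). The last was lost without control replicate 1 of 144 h or mutant replicate 1 of 120 h (adjusted p = 0.0945 and 0.0593) and against the own set (0.26, adjusted p = 0.361). These were 2 calls from 96 h to 144 h (10.3% of all genes) and 2 from 120 h to 144 h (7.07%). The Wnt3a difference of this line was not called against the controls. Against the own set it was lower at 144 h than at 96 h (-2.72, adjusted p = 6.32e-05) and than at 120 h (-2.62, adjusted p = 0.000144). In Del(CBS4), the differences of Wnt3a (3.40 ± 0.48, adjusted p = 1.2e-05), Wnt5a (0.81, adjusted p = 0.0104) and Wnt4 (-1.60, adjusted p = 0.0377) changed from 120 h to 144 h, 3 calls against 8.27% of all genes. Against the own set, Wnt3a was lower at 120 h (-2.60) and not called at 144 h (-0.53, adjusted p = 0.311), and its change stayed called. The Wnt11 difference was not called against the controls and was called against the own set (1.38, adjusted p = 0.048). Wnt5a was not called against the own set (0.37, adjusted p = 0.247) and was lost without control replicate 1 of 144 h, mutant replicate 2 of 120 h or mutant replicate 1 of 144 h, and Wnt4 without any library of 144 h, control replicate 3 of 120 h or mutant replicate 2 of 120 h (adjusted p between 0.0579 and 0.171). In Del(sub-TAD1), the Wnt8a (-1.39, adjusted p = 0.00609) and Wnt4 (-1.70, adjusted p = 0.00544) differences were lower at 120 h than at 96 h, 2 calls against 23.6% of all genes, and neither was called against the own set (adjusted p = 0.0667 and 0.0697). Against the controls, no ligand was called between 96 h and 120 h in Del(CBS1-2), Del(CBS1-5), Del(CBS1), Del(CBS2), Del(d1-d4) and Ins(2xCBS-d4d8). There 0.175%, 0.257%, 0.0526%, 0.0117%, 0.0234% and 0.392% of all genes were called, and limma gave 1, 3, 0, 0, 1 and 4 ligands with an unadjusted p under 0.05. Against the own set, the Wnt3a and Wnt5b differences of Ins(2xCBS-d4d8) were lower at 120 h (-2.01 and -1.81, adjusted p = 0.0324 and 0.0394). Against all wild type of the stage, that of Wnt3a in Del(d1-d4) was lower at 120 h (-2.17, adjusted p = 0.0219).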

How the data were processed

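Levels of RNA were taken from 61 poly-A RNA-seq libraries of mouse stembryos. The authors trimmed reads with cutadapt 1.16, aligned them with STAR 2.7.7a to mm10, and computed the deposited FPKM with Cufflinks 2.2.1 from uniquely mapped reads. Differences were fitted with limma 3.58.1 (R 4.3.3) on log2(FPKM + 0.1) with 1 mean for each of 28 groups, over the 17098 genes with a group mean of at least 1 FPKM, two-sided and adjusted by Benjamini-Hochberg within each comparison (threshold 0.05). Fragment numbers were inferred from each FPKM and its upper confidence bound. Depth was taken from 129 to 167 genes a library with a single transcript of at least 5000 bases. As a check, 59.5% to 94.1% of low fragment numbers lay within 0.02 of a whole fragment. The ligands are all described, and of each pathway list the called genes with the largest differences in each direction, up to 2, are named, with the gene most correlated with each ligand, which for Wnt11 is not reported here. Ligands, lists and markers were chosen with earlier results of these data known. Simulated data for Del(CBS1) at 120 h held 17098 genes, 200 of them changed. There, 54% of changes of 1 and 69% of changes of 2 (log2) were recovered, and 3.15% of 127 calls were false. Whether these shares hold for the measured libraries was not tested. Alternatives were other pseudocounts, filters, scalings, controls and fits, a replicate block, and leaving out each library. A planned split of libraries by summed mitochondrial mRNA could not be made, since no gap exceeded 0.211 (log2), and 4 mitochondrial transcripts, with a gap of 8.73, were used after the data were seen.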

Additional observations from a re-analysis of the deposited data

Results flagged for a closer look

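In the wild-type controls at 120 h, the highest of 4 libraries stood apart from the other 3 for Wnt5a (replicate 4, 25.3 FPKM) and for Wnt5b (replicate 3, 11.2 FPKM). These were 2 of 20 groups of 4 libraries looked at, where chance alone gives about 1 in 20. Replicate 4 is the only 120 h control in the set of 33 libraries, and the part of that in its Wnt5a level was not tested.

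The difference of a mutant from wild type changed between stages in 9 tests of the change itself (limma, log2 scale). In Del(CBS1-5) these were Wnt8a (4.08) and Wnt4 (-2.21) from 96 h to 144 h, and Wnt8a (3.19) and Wnt5a (0.83) from 120 h to 144 h. In Del(CBS4) they were Wnt3a (3.40), Wnt5a (0.81) and Wnt4 (-1.60) from 120 h to 144 h. In Del(sub-TAD1) they were Wnt8a (-1.39) and Wnt4 (-1.70) from 96 h to 120 h.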

How the results depend on the processing

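With 2 libraries in most groups, the calls lean on the spread shared by all 28 groups. When only the compared groups entered the fit, calls of ligands went from 24 to 2 in the 7 time-course intervals, from 26 to 4 in the mutants, from 9 to 3 between stages of a mutant, and to 0 for controls against the time course at 96 h and at 120 h. At 96 h this count was also 0 with a pseudocount of 0.01, with no filter and with median-of-ratios scaling. With a filter of 5 FPKM it was 0 as well, but Wnt2b, at most at 3.51 FPKM, was then not tested. At 120 h the count was 1 with a pseudocount of 1 and 1 with no filter. Leaving out 1 library at a time gave 20 to 31 calls in the intervals, 7 to 9 from 72 h to 168 h, 5 to 6 in the controls from 96 h to 120 h, 21 to 26 in the mutants, 7 to 11 between stages, and 0 to 5, 1 to 3 and 2 to 3 for controls against the time course at the stages of 96 h, of 120 h and of 144 h. Wnt2b in that comparison at 96 h ranged from -2.72 without time-course replicate 1 to 0.26 without replicate 2. Wnt3a in Del(CBS4) at 144 h turned to -0.53 against all wild type of the stage, which here is also its own set, and to -2.39 against the time course, where Wnt5a turned to -0.42. Of 81 calls, 47 were lost without some library and 61 with some other setting, and 19 were lost by none of these. The fit of only the compared groups lost 59.

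No pair of same-numbered libraries deviated together with a correlation over 0.1 (-0.0597 to 0.0838 over 35 mutant pairs and -0.0382 to 0.0945 over 7 time-course pairs). In a group with only a pair of libraries the deviations mirror each other, so these are not all separate checks. Whether same-numbered libraries were prepared together cannot be told from these values. With a replicate block the counts were 28 in the intervals, 27 in the mutants and 9 between stages, with 4 calls lost and 10 gained. Upper-quartile scaling moved the median of all genes by -0.28 to 0.18 in the 8 comparisons where it moved by over 0.1, and the replicate block by -0.126 to 0.103 in 3. The number of all genes called moved by over 1.5 times in 15 of 27 comparisons with controls of the own set and in 18 of 27 with all wild type. The causes of these changes were not tested, and changes of genes near 0.1 FPKM are limited by depth.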
